A study of Homo sapiens with 9 samples.

Results

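The arms of chromosome 9 held 1407 of the 34247 peaks in the KAS list (4.11%), 282 on the short arm and 1125 on the long arm. A peak was counted as a member when its summit lay on chromosome 9 outside 43400000 to 45500000, a stretch around the centromere, on GRCh38; positions chose the members and no measured value did. The short arm therefore ran from the first base to 43400000 and the long arm from 45500000 to the last gene end at 138331809. The last member before the boundary had its summit at 43391287 with a fold of 8.35, and the first peak beyond it had its summit at 43415680 with a fold of 4.90. On the other side the last excluded summit was at 45472985, with a fold of 4.98, and the first member at 45510253, with a fold of 8.99.

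The cells were HL-60, a human promyelocytic leukaemia line, differentiated and then induced for 4 h to release neutrophil extracellular traps, which are webs of DNA and granule proteins. The KAS library was made by giving these cultures 5 mM N3-kethoxal for 10 min and isolating the trap DNA; its label refers to the induction used for the other cultures without repeating the dose, and names no thrombin. The other 4 lists, used only for comparison, came from DNA pulled down with biotinylated thrombin (1 µM for 1 h) after induction with 500 nM phorbol myristate acetate for 4 h. There was 1 KAS library, so no value from it has a replicate check and none was tested; intervals cover counting error only.

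N3-kethoxal is a small molecule that reacts with guanine in single-stranded DNA, so KAS-seq marks places where the double helix is open, such as transcription bubbles. In intact cells such signal is usually found at the starts and along the bodies of transcribed genes. In traps the chromatin has been decondensed and released, and the signal may mix what was open in the cell with what opened later. The share of each was not measured here. The short arm of chromosome 9 carries CDKN2A and CDKN2B, which encode inhibitors of cyclin-dependent kinases, and the cluster of type I interferon genes beside them; the long arm ends in a gene-rich region with ABL1 and many other genes. HL-60 is generally described as lacking functional CDKN2A, and the 20 to 24 Mb stretch around it was named in the question asked of these data. A peak list does not measure copy number: fewer copies of a stretch of DNA and less single-stranded DNA per copy cannot be told apart here.

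KAS peaks touched few annotated promoters, and those few show what the method captured at gene starts. RefSeq (GRCh38.p14) promoter windows, 250 bases before to 50 bases after a start, were available for 1584 starts on the arms; 24 of them shared a base with a KAS peak. Of these, 4 of 439 windows were on the short arm (0.911%) and 20 of 1145 on the long arm (1.75%), beside 0.901% of windows on all autosomes. The sequences below are the 250 bases before the start, 5′ to 3′ on the gene's strand. They are shown because they are the highest-fold promoter windows of the short arm (AK3 and FRMPD1), the highest of the long arm (ZMYND19), and a pair on the long arm chosen after their values were seen (CDK9 and PHF19). Capitals mark the bases under the KAS peak.
AK3, chr9:4741800-4742049, minus strand: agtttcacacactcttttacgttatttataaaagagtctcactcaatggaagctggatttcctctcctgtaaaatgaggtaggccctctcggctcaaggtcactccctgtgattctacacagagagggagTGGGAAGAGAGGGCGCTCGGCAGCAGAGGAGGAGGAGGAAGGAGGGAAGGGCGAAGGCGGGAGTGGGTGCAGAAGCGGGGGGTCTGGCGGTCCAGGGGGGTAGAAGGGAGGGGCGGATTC
FRMPD1, chr9:37650704-37650953, plus strand: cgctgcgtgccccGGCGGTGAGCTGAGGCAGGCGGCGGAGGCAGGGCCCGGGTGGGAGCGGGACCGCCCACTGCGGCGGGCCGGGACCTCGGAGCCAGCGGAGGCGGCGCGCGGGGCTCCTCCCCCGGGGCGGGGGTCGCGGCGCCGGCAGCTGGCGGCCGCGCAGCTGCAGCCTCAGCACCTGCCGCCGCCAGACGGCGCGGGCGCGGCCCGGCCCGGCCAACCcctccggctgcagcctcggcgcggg
ZMYND19, chr9:137590513-137590762, minus strand: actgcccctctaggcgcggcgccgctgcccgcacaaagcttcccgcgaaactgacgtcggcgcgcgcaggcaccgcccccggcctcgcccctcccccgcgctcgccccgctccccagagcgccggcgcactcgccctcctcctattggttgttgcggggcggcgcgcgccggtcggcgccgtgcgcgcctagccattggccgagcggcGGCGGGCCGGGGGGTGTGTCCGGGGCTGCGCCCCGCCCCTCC
CDK9, chr9:127785784-127786033, plus strand: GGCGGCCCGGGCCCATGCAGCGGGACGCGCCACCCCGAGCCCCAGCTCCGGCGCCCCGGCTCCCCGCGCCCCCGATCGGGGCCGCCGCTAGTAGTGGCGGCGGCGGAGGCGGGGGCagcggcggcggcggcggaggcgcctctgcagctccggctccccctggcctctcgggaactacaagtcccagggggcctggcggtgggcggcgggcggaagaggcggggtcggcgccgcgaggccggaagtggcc
PHF19, chr9:120877189-120877438, minus strand: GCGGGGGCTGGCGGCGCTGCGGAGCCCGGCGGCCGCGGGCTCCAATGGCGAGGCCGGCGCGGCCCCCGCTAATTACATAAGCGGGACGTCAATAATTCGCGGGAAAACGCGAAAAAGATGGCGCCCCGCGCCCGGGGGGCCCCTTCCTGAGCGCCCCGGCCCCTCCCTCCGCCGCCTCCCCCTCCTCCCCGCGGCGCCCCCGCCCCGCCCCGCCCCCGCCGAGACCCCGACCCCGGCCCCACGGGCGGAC

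AK3 encodes a mitochondrial adenylate kinase, and its peak at 4741655 to 4741919 had a fold of 6.53. FRMPD1, which encodes a scaffold protein with FERM and PDZ domains, had a fold of 6.21 at 37650717 to 37650928, and 212 of the 250 bases lay under the peak. ZMYND19, a zinc finger gene, had a fold of 7.25, with 42 bases under the peak. CDK9 encodes the kinase that releases paused RNA polymerase II; its peak, with a fold of 4.14, also reached the hairpin of MIR3960 at 127785833 to 127785923, the only 1 of 76 miRNA hairpins on chromosome 9 to share a base with a member. PHF19, a Polycomb-associated gene, had all 250 bases under its peak and a fold of 4.19. Over all 24 windows the peaks had folds from 3.84 (SLC25A25-AS1) to 7.25 (ZMYND19), and none was among the 10 of highest fold on its arm.

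The windows with a peak were rich in guanine and cytosine. Their median G+C content was 77.8% (quartiles 70.4 and 82.0), beside 60.4% (47.2 and 69.6) for the 1560 windows on the arms without a peak and 58.4% for all autosomal windows. The run GGGG, on either strand, was found in 23 of 24 windows with a peak (95.8%), in 88.3% of those without, and in 87.0% of all. The letters ATTCC, the repeat unit in the series title, stood on either strand in 4 of the 24 (16.7%), in 29.1% of windows without a peak and in 32.1% of all autosomal windows. The 24 windows include neighbouring starts that share a peak, such as GPSM1 and the non-coding gene DKFZP434A062, and a match of letters is a description of these windows only.

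The short arm was the sparser arm: it held 6.50 KAS peaks per Mb (exact Poisson 95% interval 5.76 to 7.30) and the long arm 14.5 (13.6 to 15.3). For the long arm, a stretch of 15.0 Mb from 45511527 to 60552958 that held no gene and no peak of any list was left out of its length. The ratio of short arm to long arm was 0.449 (exact conditional 95% interval 0.393 to 0.512), 0.536 with that stretch counted as sequence and 0.327 when 38 to 70 Mb was left out. Chromosome 9 as a whole, with 10.8 peaks per Mb of its full extent, was number 12 among the 22 autosomes, beside 11.8 for the other autosomes together. Protein-coding genes were also sparser on the short arm, at 4.98 per Mb against 7.22, and there were 1.31 peaks per protein-coding gene on the short arm and 2.00 on the long arm.

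The longest run of sparse steps with genes on the arms was the stretch from 10 to 32 Mb on the short arm, in which 22 Mb of sequence with 63 protein-coding genes held 9 KAS peaks. That is 0.409 peaks per Mb (exact Poisson 95% interval 0.187 to 0.777). The bounds were chosen after the steps were seen, so the low density itself is a description. The rest of the short arm held 12.8 peaks per Mb (11.3 to 14.4), and its ratio to the long arm was 0.882 (0.770 to 1.01). Sparse steps were cut from the short arm after the counts were seen, and the long arm kept its own. The interval therefore cannot show whether the densities are equal. On the outer side of the stretch, the 0 to 10 Mb part held 72 peaks (7.20 per Mb). On its inner side the 32 to 43.4 Mb part held 201 (17.6 per Mb).

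The 20 to 24 Mb stretch around CDKN2A held 0 KAS peaks and 25 protein-coding genes by midpoint. The exact Poisson 95% interval reaches 0.922 peaks per Mb, and the one-sided limit that a count of 0 allows is 0.750 (3 counts in 4 Mb). By that one-sided limit its density was at least 9.54-fold lower than the 7.16 per Mb of the rest of the short arm. Neighbouring stretches of the same length held almost as few: 12 to 16 Mb held 1 peak, 16 to 20 Mb held 3, 24 to 28 Mb held 1 and 28 to 32 Mb held 1. Beyond them the counts were 8 at 8 to 12 Mb, 38 at 4 to 8 Mb and 29 at 0 to 4 Mb on one side, and 59 at 32 to 36 Mb and 75 at 36 to 40 Mb on the other. CDKN2A lies at 21967752 to 21995324; the nearest summit was 2.02 Mb away on its outer side and 4.99 Mb away on its inner side.

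The interval between those summits, from 19948682 to 26987105, was 7.04 Mb long and held 29 complete protein-coding genes. It was the longest interval between neighbouring KAS summits, among intervals on the autosomes that hold a complete protein-coding gene; the next, on chromosome 5, was 5.21 Mb. A further pair of intervals of the same part of chromosome 9 were among the 12 longest of this kind, at 3.74 Mb and 3.24 Mb. The plot of short-arm summits around CDKN2A shows this emptiness and its edges.

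**Figure D1:**
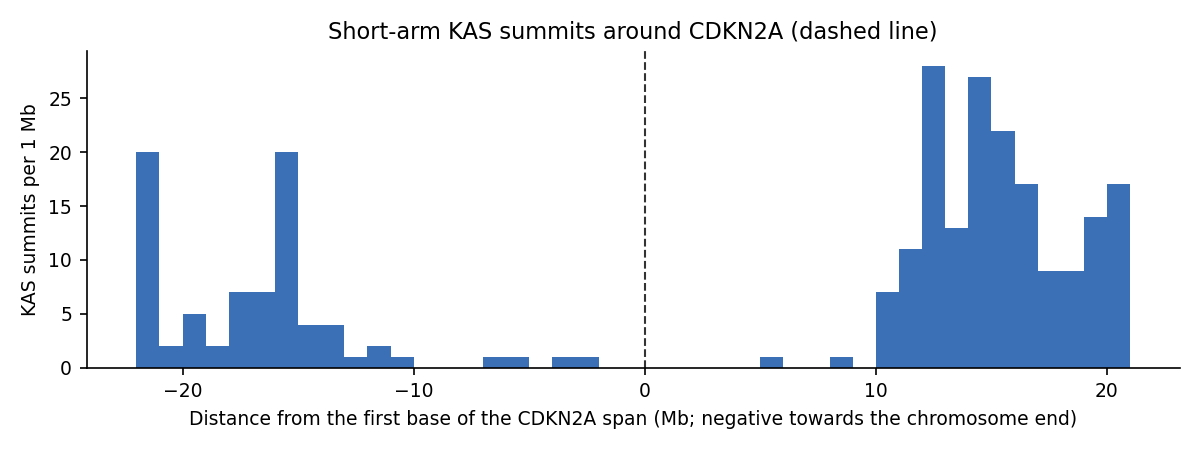
Each bar counts the KAS summits of the short arm in 1 Mb windows (vertical axis) by distance from the first base of the CDKN2A span (horizontal axis, Mb, dashed line at 0). The summits nearest the centromeric stretch, up to the last at 43391287, fall beyond the last window and are not drawn. The nearest summits lie 2.02 Mb and 4.99 Mb from the gene, and dense signal begins again about where the 32 Mb edge falls.

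The genes of the empty stretch show what was passed over. All 16 type I interferon genes of the list (IFNB1, IFNW1, IFNE and 13 IFNA genes), which encode antiviral cytokines, held no summit; they are short, with a median span of 0.975 kb. Of 14 genes of the CDKN2A neighbourhood, whose median span is 76.5 kb, only SLC24A2 held one (7.14%, exact 95% interval 0.181 to 33.9), beside 37% of all autosomal protein-coding genes. SLC24A2 encodes a sodium, calcium and potassium exchanger, and its single peak, with a fold of 4.59, lay at 19948588 to 19948853, outside 20 to 24 Mb. CDKN2A, CDKN2B, the non-coding CDKN2B-AS1, and MTAP, a methionine salvage enzyme gene that is often lost with CDKN2A in tumours, held none. Neither did MLLT3, a fusion partner of KMT2A in leukaemia with a span of 280.8 kb, FOCAD (340.3 kb), the neuronal RNA-binding protein gene ELAVL2 (160.5 kb) or the endothelial receptor gene TEK (121.0 kb). No list gene in the neighbourhood or the interferon cluster had a peak within 1 kb of either end, beside 6.79% of autosomal protein-coding genes.

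Long genes, which elsewhere mostly held a summit, mostly lacked one from 10 to 32 Mb. That stretch was chosen for its few peaks, so this follows from the choice and the values below only describe it. Of 21 protein-coding genes of at least 100 kb in the 10 to 32 Mb stretch, 3 held a summit (14.3%, exact 95% interval 3.05 to 36.3). In the rest of the short arm 22 of 25 such genes did (88.0%, 68.8 to 97.5), on the long arm 88 of 104 (84.6%, 76.2 to 90.9), and on the other autosomes 72.5% of 3060. Per Mb of these genes, there were 0.406 summits in the stretch, 10.5 in the rest of the short arm, 13.2 on the long arm and 9.22 on the other autosomes. LINGO2, the longest of them at 1276 kb, held none, and nor did CCDC171 (556.0 kb), BNC2 (461.2 kb), the transcription factor gene NFIB (450.2 kb) or CNTLN (393.6 kb). The short but highly transcribed ribosomal protein gene RPS6, with a span of 4.52 kb, also held none.

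The 9 peaks inside the stretch had a median fold of 6.18, beside 5.60 for the whole short arm with an upper quartile of 6.21. Their values ran from 4.35 to 6.73, and their pileup, the number of reads stacked at the summit, ran from 7 to 24. Protein-coding genes held 4 of them; PTPRD, whose midpoint lies before 10 Mb, is not counted among the 3 genes of the stretch with a summit. PTPRD, a receptor phosphatase gene of neurons that spans the 10 Mb edge, had a peak at 10125430 to 10125748 with a fold of 6.18. ADAMTSL1, which encodes a secreted matrix protein, had one at 18509032 to 18509276 with a fold of 6.73, the highest of the 9. IFT74, a gene of transport within cilia, had one at 26987037 to 26987236 with a fold of 5.62, and the SLC24A2 peak is given above. Another, at 15126715 to 15126930, 36.7 kb from TTC39B, had the highest pileup of the 9, at 24, and a fold of 6.59. The last, at 30226360 to 30226559 with a fold of 6.61, was 1010 kb from the nearest protein-coding gene, LINGO2.

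On the inner side of the stretch the first summit beyond it was at 32459052, in RIGI, which encodes a sensor of viral RNA, and RIGI held 3 summits, with folds of 5.70, 3.76 and 4.94. By 1 Mb windows there were 0 peaks from 31 to 32 Mb, 7 from 32 to 33 Mb, 12 from 33 to 34 Mb and 27 from 34 to 35 Mb, while protein-coding genes numbered 0, 8, 14 and 24. Peaks and genes rose together over these windows but not beyond them. There were 13 peaks and 30 genes from 35 to 36 Mb, then 27 peaks and 8 genes from 36 to 37 Mb. On the outer side the counts were 20 peaks at 6 to 7 Mb, 4 at 7 to 8 Mb, 4 at 8 to 9 Mb and 1 at 9 to 10 Mb. Protein-coding genes there numbered 6, 1, 0 and 1. The 10 Mb bound falls within PTPRD, 2299 kb long, which held 4 summits in all.

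Gene number was then taken into account by setting each 2 Mb step beside the other autosomal steps with a like number of protein-coding genes (0, 1 to 5, 6 to 15, 16 to 30, or more). The 11 steps from 10 to 32 Mb held 9 peaks where the medians of like steps summed to 132, a ratio of 0.0682, and all 11 were below their median. The 20 to 22 Mb step, with 22 protein-coding genes, held 0 peaks beside a median of 29. Without a choice made after seeing values, the whole short arm held 241 peaks where the medians of like steps summed to 340 (ratio 0.709, 16 of 21 steps below). The long arm held 1118 where they summed to 752 (ratio 1.49, 29 of 39 steps above and 7 below). The ratio was 0.960 for the 0 to 10 Mb part and 1.20 for the 32 to 42 Mb part. Step counts are skewed upward: with 16 to 30 genes the median was 29 and the quartiles 18 and 46.25. A sum of medians then falls below the mean total, so a ratio of 1 is not a neutral value.

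**Figure D2:**
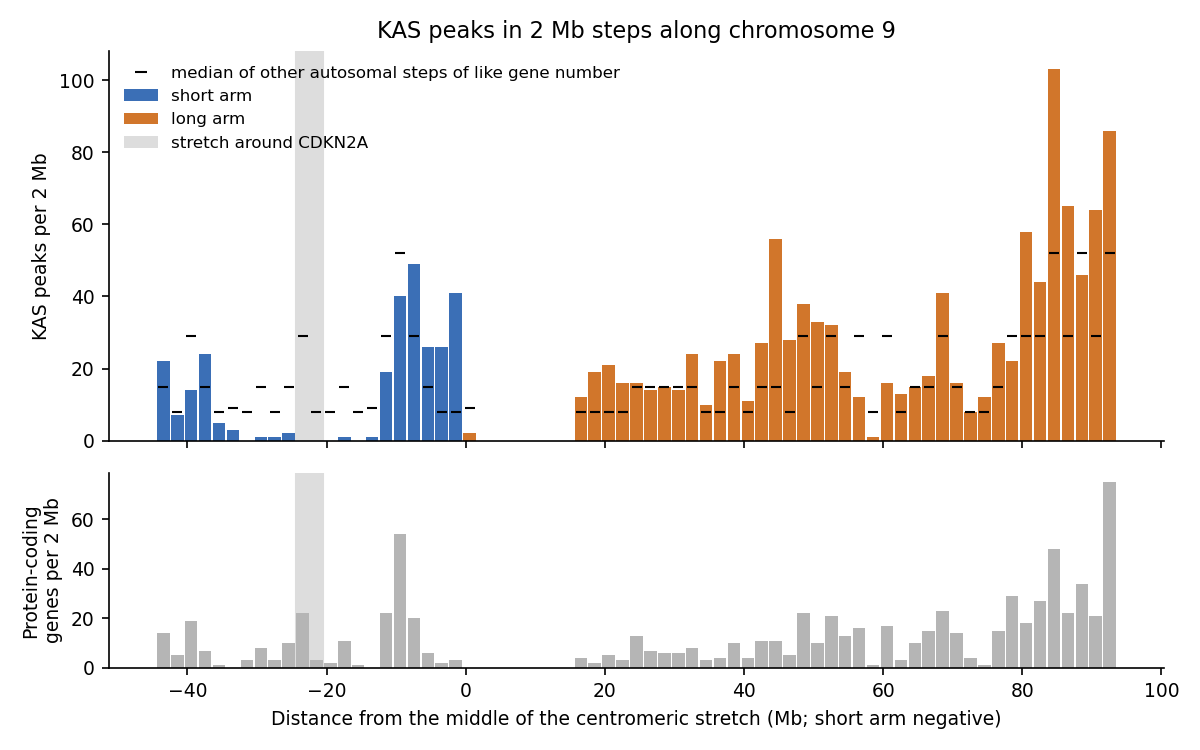
The upper panel gives KAS peaks per 2 Mb step (bars, short arm and long arm in different colours) by distance from the middle of the centromeric stretch (Mb), with a dash at the median of other autosomal steps of like gene number, and the lower panel gives protein-coding genes per step. Steps beside the centromeric stretch are only partly on an arm, the shaded band is 20 to 24 Mb, and the 11 steps from 10 to 32 Mb all stand below their dashes.

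Few other places on the autosomes were as empty over as long a run. Of 1324 steps outside chromosome 9, 116 (8.76%) held at most 3 peaks; the 11 steps from 10 to 32 Mb all did, which is how the stretch was chosen. The longest unbroken runs of such steps were 26 steps on chromosome 5 from 82 to 134 Mb (34 peaks, 159 protein-coding genes), 11 steps on chromosome 5 from 54 to 76 Mb (12 peaks, 113 genes) and the 11 steps on chromosome 9 (9 peaks, 63 genes). The next longest had 3 steps.

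**Figure D3:**
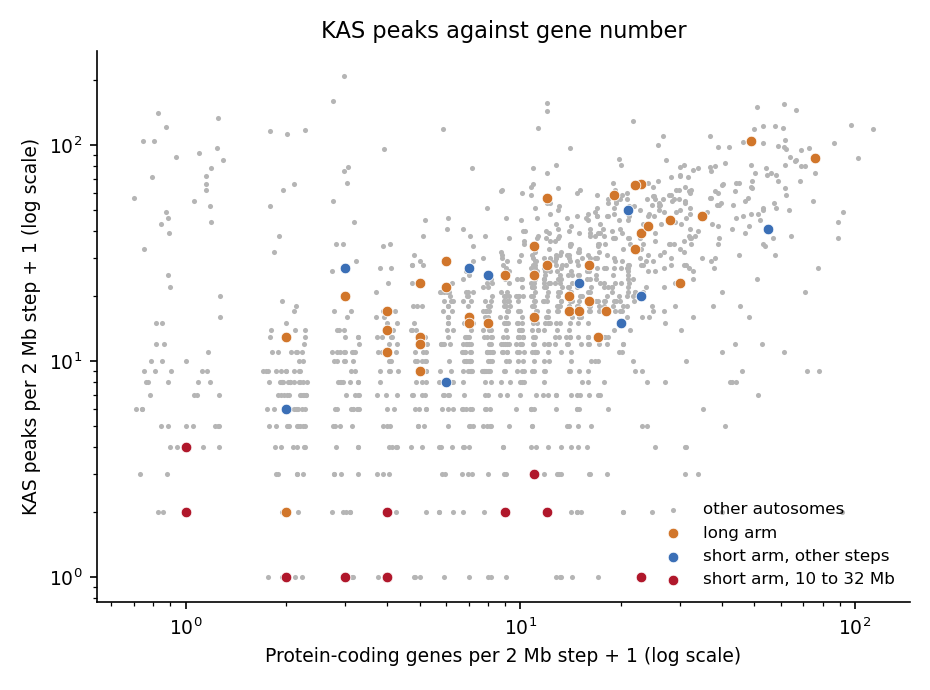
Each point is a 2 Mb step, with protein-coding genes plus 1 on the horizontal axis and KAS peaks plus 1 on the vertical axis (both log scales); grey points are other autosomes, shifted slightly sideways for clarity. The steps from 10 to 32 Mb lie at the bottom at every gene number, while most long-arm steps lie among or above the grey points.

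The fullest steps of the short arm lay between 32 Mb and the centromeric stretch. The step from 36 to 38 Mb held 49 peaks, and its genes with summits included FRMPD1, ZCCHC7, the mitotic kinase gene MELK, the sialic acid synthesis gene GNE and the B-cell factor gene PAX5. The part of the 42 to 44 Mb step that is on the arm, 1.4 Mb, held 41 peaks. By gene midpoint, its protein-coding genes with a summit were CNTNAP3B, a neuronal adhesion gene, and LOC112268044. Of the CNTNAP3B summits only the one at 42098448 lay in this step, and the others lay before 42 Mb. The step from 34 to 36 Mb held 40, in UBAP1, UNC13B, KIF24, VCP and others. The emptiest steps, with 0 peaks each, were 12 to 14, 20 to 22, 22 to 24, 24 to 26 and 28 to 30 Mb.

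From 38 to 43.4 Mb the arm had few protein-coding genes but many peaks: 93 peaks and 11 genes, or 8.45 peaks per gene, against 1.12 from 32 to 38 Mb. This part holds long near-identical copies of sequence that recur on the long arm side of the centromere, so reads from one copy can be placed on another, and no source used here says how the authors handled such reads. Of the 10 peaks of highest fold on the short arm, 9 lay there. The strongest was at 40560178 to 40560774 in the uncharacterised gene LOC102724580, with a fold of 15.9, and 7 of the others lay together between 43318618 and 43346341, at folds from 9.79 to 15.0. The only one of the 10 in the gene-rich part was at 35913568 to 35914527, 1.88 kb from SPAAR, which encodes a small regulatory polypeptide of amino acid sensing, with a fold of 11.96. The mirrored flank of the long arm, 60 to 70 Mb, held 84 peaks, 1.79 times the sum of the medians of like steps. Genes with summits there included CNTNAP3C, ZNF658, PIP5K1B and PGM5.

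The fullest part of the long arm was its end. From 124 Mb onwards 471 peaks lay in 14.3 Mb, or 32.9 per Mb (exact Poisson 95% interval 30.0 to 36.0), against 10.5 (9.67 to 11.4) from 70 to 124 Mb, a ratio of 3.13 (2.76 to 3.54). The number of peaks per protein-coding gene was alike in these parts, at 1.91 and 1.97. The step from 128 to 130 Mb was the fullest of the chromosome, with 103 peaks and 48 protein-coding genes, of which 22 held a summit. They included DYNC2I2, PHYHD1, the membrane skeleton gene SPTAN1, ZER1, SLC27A4, the nuclear pore gene NUP188 and the histone chaperone gene SET. The steps from 136 to 138 Mb (86 peaks, with EHMT1, EXD3, PNPLA7 and DPH7) and from 130 to 132 Mb (65 peaks, with ABL1, GPR107 and HMCN2) followed. The emptiest steps of the long arm were 102 to 104 Mb with 1 peak and 1 gene, 116 to 118 Mb with 8 peaks, all of its summits in protein-coding genes falling in ASTN2, and 78 to 80 Mb with 10.

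Across steps, peaks and protein-coding genes rose together on the long arm (Spearman coefficient 0.733, Pearson r 0.794, 39 steps) and on the short arm (Spearman coefficient 0.389, r 0.587, 21 steps); over the other autosomes the Spearman coefficient was 0.517 and Pearson r 0.496 (1324 steps). All steps share 1 library, and the difference between these values was not tested. The short arm stood below the other autosomes by the first measure and above them by the second.

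Peaks of both arms were alike in height and width. The median fold, the authors' own value at each summit, was 5.60 on the short arm (quartiles 4.89 and 6.21). It was 5.44 on the long arm (4.66 and 6.21), beside 5.43 on the other autosomes with their centromeric peaks kept. Median widths were 237.5 and 251.0 bases. Most peaks rested on few reads: the median pileup was 10 on both arms, and 82.6% of short-arm and 83.2% of long-arm peaks had a pileup of at most 12. Median spacing between neighbouring summits was 35.8 kb on the short arm and 30.6 kb on the long arm.

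**Figure D4:**
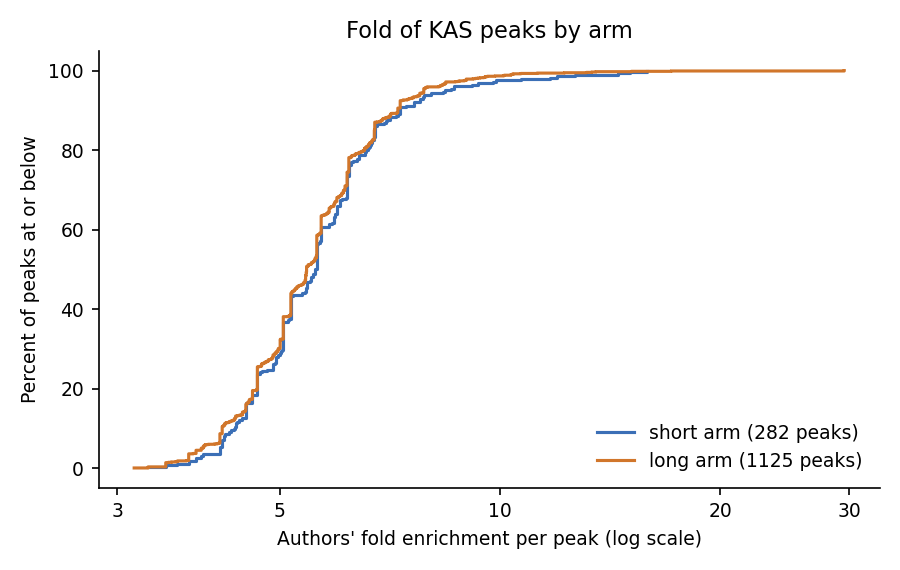
The curves give the percent of peaks at or below each fold (horizontal axis, authors' fold enrichment, log scale) for 282 short-arm and 1125 long-arm peaks. The curves nearly overlie each other, with medians of 5.60 and 5.44.

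The strongest peak of the arms was at 81960706 to 81960961, 10.6 kb from SPATA31D3 and inside LOC105376105, with a fold of 29.5, well above the next. The next was in LRSAM1, a ubiquitin ligase gene, at 127458144 to 127458385 with a fold of 17.1. The third on the long arm lay in LINC03062 at 89671532 to 89671836, 65.0 kb from the stress-response gene GADD45G, with a fold of 15.1. Peaks beside ZFP37 (13.5), in HMCN2 (13.3), beside CDK5RAP2 (13.1), in EHMT1 (12.2), at the edge of the unoccupied stretch at 60552959 (11.2), in AGTPBP1 (10.7) and in RALGDS (10.4) completed the 10 of highest fold on that arm. The widest member, of 2508 bases, was at 43318618 to 43321125, and the widest in a gene was 1910 bases in COL5A1.

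By position in genes the arms were alike. On the short arm 123 of 282 peaks (43.6%, exact 95% interval 37.8 to 49.6) overlapped a protein-coding gene, 12.4% another gene only and 44% none. On the long arm the shares were 47.0% (44.1 to 50.0), 12.2% and 40.8%, and on the other autosomes 45.8%, 9.76% and 44.5%. Summits within 1 kb of a RefSeq protein-coding start made up 3.55% of short-arm peaks (10 of 282, 1.71 to 6.43) and 3.47% of long-arm peaks (39 of 1125, 2.48 to 4.71). On the other autosomes that the start table covers the share was 1.92% (1.77 to 2.07), and the chromosome 9 arms together, at 3.48% (2.59 to 4.58), came second of 21 chromosomes after chromosome 19 (4.27%). The other chromosomes kept their centromeric peaks, here and in the shares above, while the chromosome 9 arms leave theirs out. The start table held 87.0% of protein-coding genes of the chromosome 9 arms. It held 81.8% of those on the other autosomes that it covers, which leave out chromosome 8. The part of these differences in the result was not tested. The strongest such peaks lay at or beside PRRC2B (7.77, at another start than its promoter window with a peak), CCDC187 (7.56), ZMYND19 (7.25), MVB12B (6.74) and CAMSAP1 (6.63).

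A KAS summit lay in 234 of 562 protein-coding genes of the long arm (41.6%, exact 95% interval 37.5 to 45.8) and in 58 of 216 of the short arm (26.9%, 21.1 to 33.3), beside 37% of all autosomal protein-coding genes. Within the short arm 3 of 63 genes from 10 to 32 Mb held one (4.76%), and 55 of 153 elsewhere did (35.9%), a difference that follows from how the stretch was chosen. Genes with a summit were long: their median span was 81.2 kb on the short arm and 73.8 kb on the long arm, beside 12 and 10.8 kb for genes without. Genes with a peak within 1 kb of an end made up 4.63% on the short arm and 10.1% on the long arm, beside 6.79% of autosomal genes.

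EHMT1, a histone methyltransferase gene near the end of the long arm (137619005 to 137836127, 217.1 kb), held the most summits, 13, with folds from 4.14 to 12.2. Its strongest peak was at 137721169 to 137721713, with a pileup of 42, and 6 of the 13 summits lay within 50 kb from 137623093. COL5A1, which encodes a fibrillar collagen chain, followed with 10 summits in 203.0 kb and folds from 4.19 to 8.80. AOPEP, an aminopeptidase gene of 423.5 kb, and KDM4C, a histone demethylase gene of 454.8 kb, held 9 each.

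KDM4C (6720863 to 7175648) held the most of any short-arm gene. Its 9 summits were of even height, with folds from 4.19 to 6.93 and pileups from 8 to 12, and 6 of them lay within 50 kb from 6749920, near one end of the gene. The next on the short arm were UBAP2, a ubiquitin-binding protein gene of 127.5 kb, and FRMPD1, of 143.7 kb, with 8 each; 5 of the 8 in UBAP2 lay within 50 kb. ZCCHC7, CNTNAP3B and DOCK8, a gene of leukocyte movement whose loss causes immunodeficiency, held 6 each, MELK 5, and UBAP1, UNC13B and KANK1 4 each. CNTNAP3B is one of several near-identical copies, so its reads may belong to another copy.

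On the long arm the others with most summits were DYNC2I2 (8), a gene of dynein transport in cilia, SEMA4D (8), a semaphorin gene of lymphocytes, SCAI (8), a transcription cofactor gene, and EXD3 (7). ABL1, the tyrosine kinase gene joined to BCR in chronic myeloid leukaemia, and VAV2, a signalling gene of blood and other cells, also held 7 each but are longer than EXD3. SEMA4D had 1 peak with a pileup of 60, and EXD3 1 of 61, the highest among the genes named here by number of summits.

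Per length, the 10 densest genes were all on the long arm and 6 of them lay in the step from 128 to 130 Mb. PHYHD1, a dioxygenase-like gene of 21.1 kb at 128920982 to 128942041, held 6 summits, or 28.5 per 100 kb, with folds from 5.06 to 6.56, and its first lay within 1 kb of an annotated start. SLC27A4, a fatty acid transporter gene, had 19.1 per 100 kb (4 summits), QNG1, a queuosine salvage gene, 16.1 (3), and DYNC2I2 15.7 (8). TBC1D13 (12.9), DPH7 (12.3), ZER1 (11.7), ZNF367 (9.25), ZBTB43 (8.79) and SLC25A25 (7.31) completed the 10 that held at least 3 summits. The spans of DYNC2I2 and SET overlap at one end. The last DYNC2I2 summit, at 128678159, lies before the SET span begins at 128683424, so no summit was counted for both.

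**Figure D5:**
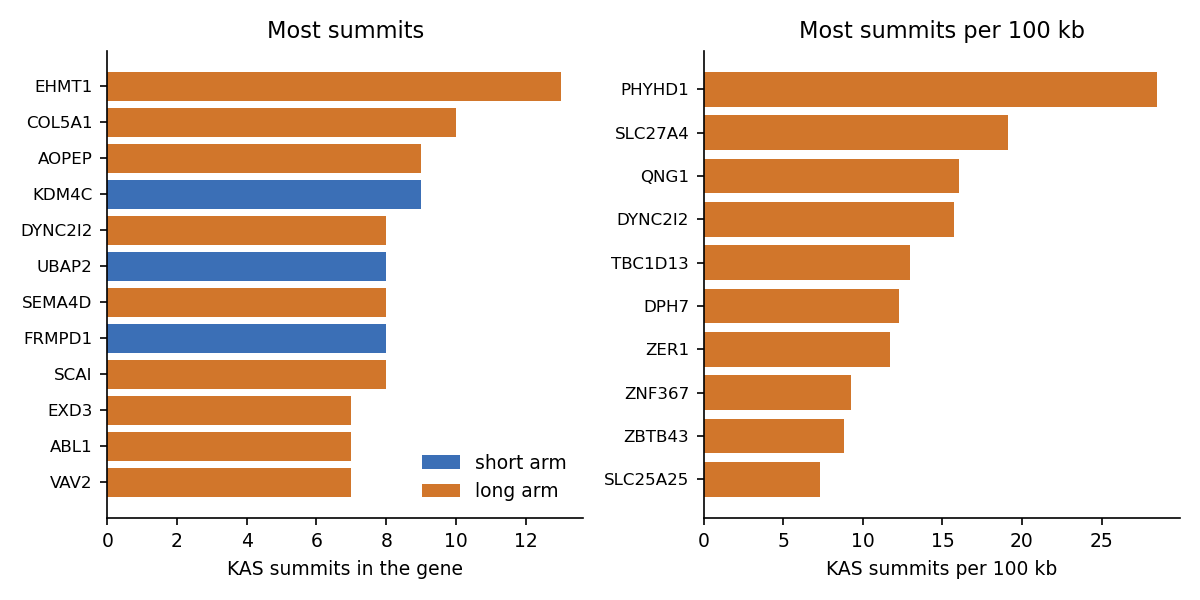
Bars give KAS summits within the gene span for the 12 genes with most (left) and summits per 100 kb for the 10 densest protein-coding genes with at least 3 (right), coloured by arm. EHMT1 leads by number with 13 and PHYHD1 by length with 28.5 per 100 kb.

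The share of myeloid and inflammatory genes with a summit was near that of all genes. Of 30 myeloid and inflammatory genes, 13 held a summit (43.3%, exact 95% interval 25.5 to 62.6), beside 37% of autosomal protein-coding genes, and the median was 0 summits for the list and for all autosomal genes. Besides ABL1 and VAV2 they were the transcriptional repressor gene GFI1B (3 summits) and the signalling kinase genes SYK (2, folds 6.33 and 6.92) and JAK2 (1, fold 4.66). The others were DAPK1 (2), the complement gene C5 (2), the actin-severing gelsolin gene GSN (2), ENG (2), RXRA (2), TRAF2 (2), NFIL3 (1) and PDCD1LG2 (1). LCN2, which encodes a protein of neutrophil specific granules, FCN1, ORM1, ORM2, TLR4, CARD9 and ANXA1 held none. Of this list 1 gene, VAV2, had a peak within 1 kb of an end, as did 1 of the housekeeping and 1 of the other-tissue genes described next.

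The share with a summit was lower for housekeeping genes than for genes of other tissues, whose list had the longer median span. The other lists did not all keep this order. The CDKN2A neighbourhood had a median span of 76.5 kb and a share of 7.14%, and the myeloid list 31.8 kb and 43.3%. The part of span in these shares was not tested. Of 19 ribosomal protein and housekeeping genes, with a median span of 12.5 kb, 5 held a summit (26.3%, 9.15 to 51.2): UBAP1 (4), VCP (1), POLR1E (1), PSMD5 (1) and SET (1). RPL7A, RPL12, RPL35 and RPS6 held none. Of 20 genes typical of neurons and other tissues, with a median span of 163.9 kb, 14 did (70%, 45.7 to 88.1). They included COL5A1 (10), the convertase gene PCSK5 (6), the neuronal migration gene ASTN2 (6), PTPRD (4), UNC13B (4), the channel gene TRPM3 (4) and the receptor gene GABBR2 (3). Per 100 kb, the members with a summit ran from 0.174 (PTPRD) to 4.93 (COL5A1), and those of the myeloid list from 0.687 (JAK2) to 6.26 (GFI1B), so the ranges of the lists overlapped. Of 25 olfactory receptor genes 2 held a summit (8%), OR1J2 and OR1L8, whose spans overlap and hold the same 2.

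Thrombin pulldown peaks were rare on the arms, with 1, 3, 5 and 6 in replicates 1 to 4, a mean of 3.75 ± 2.22 (SD, n = 4). The whole lists of these replicates held 886, 570, 790 and 882 peaks, against 34247 in the KAS list. None lay between 10 and 32 Mb in any list, but with so few peaks on the arms a count of 0 there says little. Of these peaks 1 of 1, 0 of 3, 4 of 5 and 4 of 6 shared a base with a KAS peak. Conversely, 5 of the 1407 KAS peaks (0.355%, exact 95% interval 0.116 to 0.827) shared a base with any pulldown peak, beside 1.74% of those on the other autosomes. These sets are unlike: the other autosomes keep their centromeric peaks and the arms do not. On the whole of chromosome 9 the pulldown lists held 5, 5, 7 and 11 peaks. How far this accounts for the lower share was not tested. The 5 shared peaks included 43324696 to 43326113 (KAS fold 15.0) and 43333370 to 43333948 (10.7). The others lay at 70038231 to 70038546 in LOC124902179 (5.71), 76175208 to 76175423 in PCSK5 (4.48) and 137355483 to 137355818 in EXD3 (5.51). The LOC124902179 site was held by replicates 1, 3 and 4, with pulldown folds of 2.54, 3.12 and 2.69, and it had the highest KAS pileup of the arms, 159. The EXD3 site was held by replicates 3 and 4, at folds of 3.73 and 7.96. The labels do not state that replicates came from separate cultures, so this spread may be technical.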

How the data were processed

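Tools named in the submitters' processing notes, with no role or setting, were MACS2 (2.2.7.1), bedtools (2.30.0), Picard (2.27.4), SAMtools (1.6) and BWA; the notes give GRCh38.p13 as the build. No source used here says whether an input library was the control. Each library analysed here has 1 deposited list, laid out as a MACS2 table. In it the authors' pileup signal is the read height at a summit and is not scaled between libraries. The authors' fold is a ratio over the local background that the caller estimated. The deposited −log10 values are for p and for q, and the smallest −log10 q in the KAS list was 2.00. The depth of the libraries is unknown, because the lists hold no totals.

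Peaks were placed by summit. Genes came from a RefSeq table of GRCh38.p14, a later patch of the same assembly with equal positions on the chromosomes, which gives no strand; strands and starts came from the RefSeq promoter table. A gene held a peak when the summit lay in its span. Genes were assigned to steps by midpoint, so a summit of a gene may lie in a neighbouring step. Steps of 2 Mb were compared with steps of like gene number on the other autosomes, leaving out steps with neither gene nor peak and the last incomplete step of each chromosome. All genes of the lists were found. Named items were the 10 peaks of highest fold per arm, the 10 genes with most summits and the 10 densest with at least 3, the protein-coding genes from 20 to 24 Mb, list genes with a summit, and the 3 fullest and 3 emptiest steps per arm. An item that the text leaves out is not reported here. The stretches other than 20 to 24 Mb were chosen after the steps were seen, and the members, lists and rules were chosen with earlier results of these data known. Intervals are exact at 95% (Poisson, conditional or Clopper-Pearson). No KAS value was tested, since there is 1 KAS library; pulldown values were checked for outliers with Dixon's test. Input libraries were not analysed here. The steps were checked on simulated data. Alternatives covered arm length, peak thresholds, merging, step position and overlap rules. Scripts ran under Python 3.11.15 with SciPy 1.17.1, pandas 2.3.3, NumPy 2.4.6 and Matplotlib 3.10.9.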

Additional observations from a re-analysis of the deposited data

Results flagged for a closer look

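The centromeric stretch that was left out of the arms held 88 KAS peaks in 2.1 Mb, or 41.9 per Mb, above the 3 that a count of 0 allows; it is named here because the comparisons of the arms do not use it. Its median fold was 7.27 and its highest 20.0. In 4 measures of the pulldown lists on the arms, no library stood apart by Dixon's test for 4 samples.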

How the results depend on the processing

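Of 54 values recomputed under other settings, 40 stayed within the interval of the main value (for the pulldown mean, within 1 SD) and 14 moved. Some could not move. Leaving out peaks at the highest pileup removed none from the arms, and counting the whole arm length leaves short-arm densities as they are. The short arm stayed below the long arm in every setting. Short-arm density was 4.97 peaks per Mb without 38 to 70 Mb, 3.55 with the 50% of peaks of higher fold and 2.97 with a −log10 q of at least 5; on the long arm it was 7.33 and 6.40 with those peak thresholds and 12.1 over the whole arm length. The ratio moved to 0.536 over the whole arm length and 0.327 without 38 to 70 Mb. The 20 to 24 Mb stretch held 0 peaks in every setting, but no setting could add peaks to it, so this count was fixed in advance. The bound on how many times lower it was fell to 7.41 without 38 to 70 Mb and 5.21 with higher folds. It fell to 4.37 with the stricter q and 4.54 for 21 to 23 Mb. Fewer peaks or bases enter each of these. Relative to the medians of like steps, shifting the steps by 1 Mb gave 0.597 for the short arm and 1.39 for the long arm. The cause was not tested. The 10 to 32 Mb stretch, whose settings were chosen after seeing the data, held 0.273 peaks per Mb with higher folds and 0.227 with the stricter q, against 0.409; these are inside its wide interval (0.187 to 0.777), which rests on 9 peaks. The same 10 genes had most peaks by summit and by any shared base. Leaving out each pulldown replicate gave means from 3.00 to 4.67. No paired analysis was possible because the KAS library has no replicate and no peak list of an input library was used here. Pileups near 10 at most peaks limit how finely low densities can be told apart.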
